A study of Mus musculus with 9 samples.

Results

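The nuclear-encoded respiratory chain genes are the genes of the cell nucleus whose proteins form the electron transport chain and the ATP synthase of mitochondria. They were chosen by symbol, as genes whose names begin with Nduf, Sdha, Sdhb, Sdhc, Sdhd, Uqcr, Cyc1, Cycs, Cox4, Cox5, Cox6, Cox7, Cox8 or Atp5, leaving out pseudogenes and probe sets that name several genes. The rule used symbols alone, but it was set with earlier results of these data known. A gene with several probe sets was represented by its brightest, by mean level on the 9 arrays. This gave 95 of the 30742 genes tested. By the complex of their product, 34 belonged to complex I, 4 to complex II, 9 to complex III, 20 to complex IV and 17 to complex V (the ATP synthase), and 1 was cytochrome c. A further 7 were complex I assembly factors whose symbols begin with Ndufaf, and 3 were other assembly factors, Sdhaf1, Sdhaf2 and Dmac2 (named Atp5sl on the array). Ndufa4 and its relative Ndufa4l2 carry complex I names, and were counted with complex IV because Ndufa4 is now known as a subunit of that complex. The subunits encoded by mitochondrial DNA were not analysed here.

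Complex I takes electrons from NADH and complex II takes them from succinate, and both pass them to coenzyme Q. Complex III hands them to cytochrome c, a small mobile protein, and complex IV passes them on to oxygen, while the proton gradient built on the way drives ATP synthesis by complex V. Assembly factors help to build the complexes and are not part of the finished enzyme. Activated CD8+ T cells enlarge their mitochondria as they begin to divide, and the blocking of PD-1 and the stimulation of CD27 both act on such cells.

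RNA was measured in transferred pmel1 CD8+ T cells, which carry a transgenic receptor for a gp100 peptide, with 1 whole-transcript array for each of 9 mice. Recipient mice received Thy1.1+ pmel1 cells, then 100 µg of human gp100 peptide with 400 µg of antibody, and the cells were sorted from the spleen on day 4. The combination group (3 mice) received 200 µg of the agonist anti-CD27 antibody AT124, 100 µg of anti-PD-1 (RMP1-14) and 100 µg of anti-PD-L1 (10F.9G2). The anti-CD27 group (3 mice) received 200 µg of AT124 and 200 µg of isotype control antibody, and the anti-PD-1/L1 group (3 mice) 100 µg of each blocking antibody and 200 µg of isotype control. All 3 groups share the peptide, and no group without CD27 stimulation or PD-1/PD-L1 blockade was among the samples. The recipients were naive congenic mice, and the transferred cells were separated from host cells by a sort on Thy1.1 and CD8. The sources used here do not give the age of the mice. In such bulk RNA, a change in how many cells of a state are present and a change in RNA per cell cannot be told apart.

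The anti-PD-1/L1 arrays stood apart from the other 6 in ways that touch each comparison with them. Background control probe sets had mean log2 levels of 4.01 to 4.16 on these 3 arrays and of 3.20 to 3.32 on the others, and positive control probe sets had mean log2 levels of 5.59 to 5.96 against 6.68 to 6.83. The SD of log2 levels over all genes was 2.00 to 2.09 on the anti-PD-1/L1 arrays and 2.21 to 2.26 on the rest. Combination and anti-CD27 arrays also differed slightly in both measures, without overlap. Positive controls lay at 6.76 to 6.83 with the combination and 6.68 to 6.72 with anti-CD27, and the SD at 2.24 to 2.26 against 2.21 to 2.23. The part of this in the differences between these groups was not tested. Of 7 measured CD8 T-cell markers, the median log2 level was 8.86 to 9.59 on the anti-PD-1/L1 arrays and 9.48 to 9.76 on the others. Median log2 levels of the lists for CD4 T cells, B cells, myeloid, dendritic, NK, erythroid and platelet markers lay between 2.08 and 5.12 on the 9 arrays. Those for B cells, myeloid, dendritic, erythroid and platelet markers were higher on each anti-PD-1/L1 array than on any other, as was the median of all genes. That median was 3.94 to 3.99 on the anti-PD-1/L1 arrays and 3.56 to 3.63 on the others. The spread between mice was also wider in that group, where the median SD of the 95 genes was 0.155, against 0.056 in the combination group and 0.055 in the anti-CD27 group.

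Cells of the combination group and the anti-CD27 group were compared first, which asks what PD-1/PD-L1 blockade added to CD27 stimulation. Most respiratory chain genes had a small positive difference, and few passed the test singly. Of the 95 genes, 81 had a log2 difference above 0 (85.3%), against 47.6% of all genes tested, and the median log2 difference was 0.12 against -0.00 over all genes. On all 3 combination arrays, 50 of the 95 genes (52.6%) lay above all 3 anti-CD27 arrays, against 12.1% of all genes, and 3 lay below (3.16%), against 8.46%. At an adjusted p under 0.05 in limma's moderated test, 2 of the 95 genes were higher in the combination group (2.11%) and 0 were lower, against 1.26% and 0.52% of all genes, 1.78% in either direction. Both calls, Ndufa9 and Ndufb6, are accessory subunits of complex I. At an unadjusted p under 0.05 there were 24 of the 95 genes, of which 22 had a positive difference, against 9.68% of all genes in either direction.

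These genes are among the brighter ones, and levels bear on such shares. With the lowest 75% of genes by mean level left out, 58.2% of the remaining genes had a difference above 0, and 90.5% of the remaining respiratory chain genes did. Among the same brighter genes, the 3 combination arrays lay above the 3 anti-CD27 arrays for 29.9% of all genes and for 60.8% of respiratory chain genes. Calls gave no such contrast, since 5.13% of the brighter genes were called higher and 4.05% of the respiratory chain genes among them, 3 of 74. The differences were small beside the noise of the test, which used the spread of all 9 arrays. With a spread estimated from the 6 arrays compared, 13 of the 95 genes were called higher and 0 lower, 13.7% against 3.98% of all genes called higher and 1.39% called lower. They were Cycs, Cox5a, Ndufa4, Uqcrb, Ndufb4b, Ndufa9, Ndufb6, Ndufs1, Ndufa1, Atp5md, Cox6a1, Atp5l2 and Ndufa8. In contrast, leaving out any 1 anti-CD27 array, combination replicate 1 or combination replicate 3 from the fit of all arrays left 0 genes called, and leaving out combination replicate 2 left 1, Ndufa9. In those fits 0.442% to 0.722% of all genes were called higher. Leaving out anti-PD-1/L1 replicate 1 gave 6 of the 95 genes (6.32%) and leaving out anti-PD-1/L1 replicate 3 gave 4 (4.21%), against 3.06% and 1.6% of all genes called higher. The count of genes with a difference above 0 ran from 76 to 82 when each array was left out in turn. It was 66 with the level of the positive control probe sets as a term in the fit, where 53.5% of all genes were above 0.

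**Figure D1:**
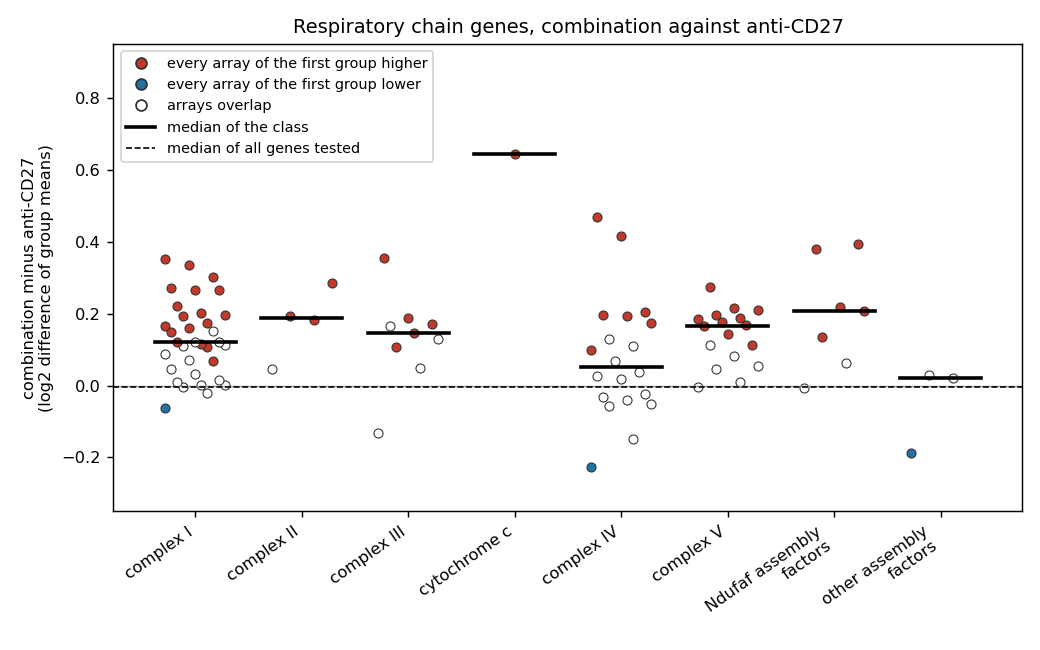
Difference between the mean log2 levels of combination and anti-CD27 arrays (y axis) for each of the 95 genes, by complex (x axis). Red points mark the 50 genes whose 3 combination arrays all exceeded the 3 anti-CD27 arrays, blue points the 3 with the reverse, and open points those with overlap; bars are class medians and the dashed line is the median of all genes, -0.00.

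In complex I, 31 of 34 subunit genes had a difference above 0 and the median log2 difference was 0.12. Ndufa9, an accessory subunit next to the coenzyme Q binding site, had log2 levels of 7.69, 7.63 and 7.74 on the combination arrays, 7.37, 7.36 and 7.33 on the anti-CD27 arrays and 7.47, 7.41 and 7.40 on the anti-PD-1/L1 arrays. The lowest combination array was thus above each of the other 6. Its log2 difference between combination and anti-CD27 was 0.34 ± 0.05 (SE), a fold of 1.26, with an adjusted p of 0.0141 by limma. Over 19 other settings of the analysis the adjusted p ran from 0.000964 to 0.0807 and stayed under 0.05 in 12.

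Ndufb6 is an accessory subunit of the membrane arm, and its mean log2 level of 7.21 was not above the 95th centile of the background control probe sets, 7.35. That centile rests on 23 probe sets. For the 5222 negative control probe sets the 95th centile was lower, 5.53 to 6.07 on the 9 arrays. Ndufb6 had log2 levels of 7.22, 7.14 and 7.15 with the combination, 6.92, 6.89 and 6.89 with anti-CD27 and 7.53, 7.61 and 7.58 with anti-PD-1/L1. The 3 groups did not overlap, and the anti-PD-1/L1 arrays were the highest. The log2 difference between combination and anti-CD27 was 0.27 ± 0.05 (SE), with an adjusted p of 0.0281 by limma, and the adjusted p ran from 0.00166 to 0.208 over 19 other settings, under 0.05 in 10.

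The core subunits of complex I carry the flavin and iron-sulfur centres, and 0 of 6 measured were called in limma's test, while all 6 had a difference above 0 and 3 had an unadjusted p under 0.05. Ndufs1, the largest iron-sulfur subunit, had log2 levels of 6.23, 6.21 and 6.28 on the combination arrays and 5.97 on each anti-CD27 array, and its log2 difference was 0.27 ± 0.09 (SE, adjusted p 0.303 by limma). Its 3 anti-PD-1/L1 arrays were lower still, at 5.58, 5.19 and 5.28. Ndufv1, which binds NADH, differed by 0.19 ± 0.08 and its partner Ndufv2 by 0.20 ± 0.07 on the log2 scale, both without overlap between the 2 groups of arrays. Ndufab1, the mitochondrial acyl carrier protein, differed by 0.09 ± 0.05, with overlapping arrays. The lowest difference in the complex was that of Ndufa2, -0.06 ± 0.05 on the log2 scale, with its combination arrays below its anti-CD27 arrays. The highest was that of Ndufb4b, 0.35 ± 0.10, whose 3 combination arrays lay at log2 levels of 8.47 to 8.56 and whose anti-CD27 arrays lay at 8.03 to 8.25. Ndufb4b is a near copy of Ndufb4, so its signal may be shared with that gene, and the probe set of Ndufb4 was left out because it names another gene as well.

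All 4 genes of complex II, which is also the succinate dehydrogenase of the citric acid cycle, had a difference above 0, with a median of 0.19, and 0 were called. Log2 differences were 0.28 ± 0.12 for Sdhd and 0.18 ± 0.11 for Sdhc, the membrane anchors, 0.19 ± 0.07 for Sdhb, the iron-sulfur subunit, and 0.05 ± 0.16 for Sdha, the flavoprotein (SE). For Sdha alone of the 4, the arrays of both groups overlapped.

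In complex III, 8 of 9 genes had a difference above 0, the median log2 difference was 0.15 and 0 were called. Uqcrb, a small subunit, had log2 levels of 8.61, 8.59 and 8.52 with the combination, 8.10, 8.28 and 8.28 with anti-CD27 and 8.31, 7.95 and 7.50 with anti-PD-1/L1. The combination arrays lay above all others, and the anti-PD-1/L1 arrays spread over 0.8 log2 units. The log2 difference to anti-CD27 was 0.35 ± 0.17 (SE, adjusted p 0.613 by limma with all 9 arrays). Uqcrfs1, the Rieske iron-sulfur protein, differed by 0.19 ± 0.07, Uqcrc1 and Uqcrc2, the core proteins, by 0.17 ± 0.11 and 0.13 ± 0.12, and Cyc1, cytochrome c1, by 0.17 ± 0.08. Uqcrh, the hinge protein at which cytochrome c docks, was the exception, at -0.13 ± 0.07.

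Cytochrome c, encoded by Cycs, had the largest difference of the 95 genes. Its brighter probe set had log2 levels of 8.18, 8.12 and 7.96 on the combination arrays, 7.50, 7.31 and 7.50 on the anti-CD27 arrays and 7.23, 7.07 and 6.51 on the anti-PD-1/L1 arrays. The 3 groups did not overlap, and the order ran from combination to anti-CD27 to anti-PD-1/L1. Between combination and anti-CD27 the log2 difference was 0.65 ± 0.17 (SE), a fold of 1.56, with an adjusted p of 0.129 by limma, and so it was not called. The number of this probe set places it on chromosome 19, while the Cycs gene lies on chromosome 6, so its signal may include a copy of the gene elsewhere. A second probe set, placed on chromosome 6, had log2 levels of 7.59, 7.72 and 7.43, then 7.09, 7.02 and 7.10, then 6.87, 6.62 and 6.55 in the same order of groups. There, too, the groups did not overlap, and with this probe set Cycs was called, with a log2 difference of 0.51 ± 0.10 (SE) and an adjusted p of 0.0425 by limma. That probe set was looked at after the values of the brighter one had been seen.

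**Figure D2:**
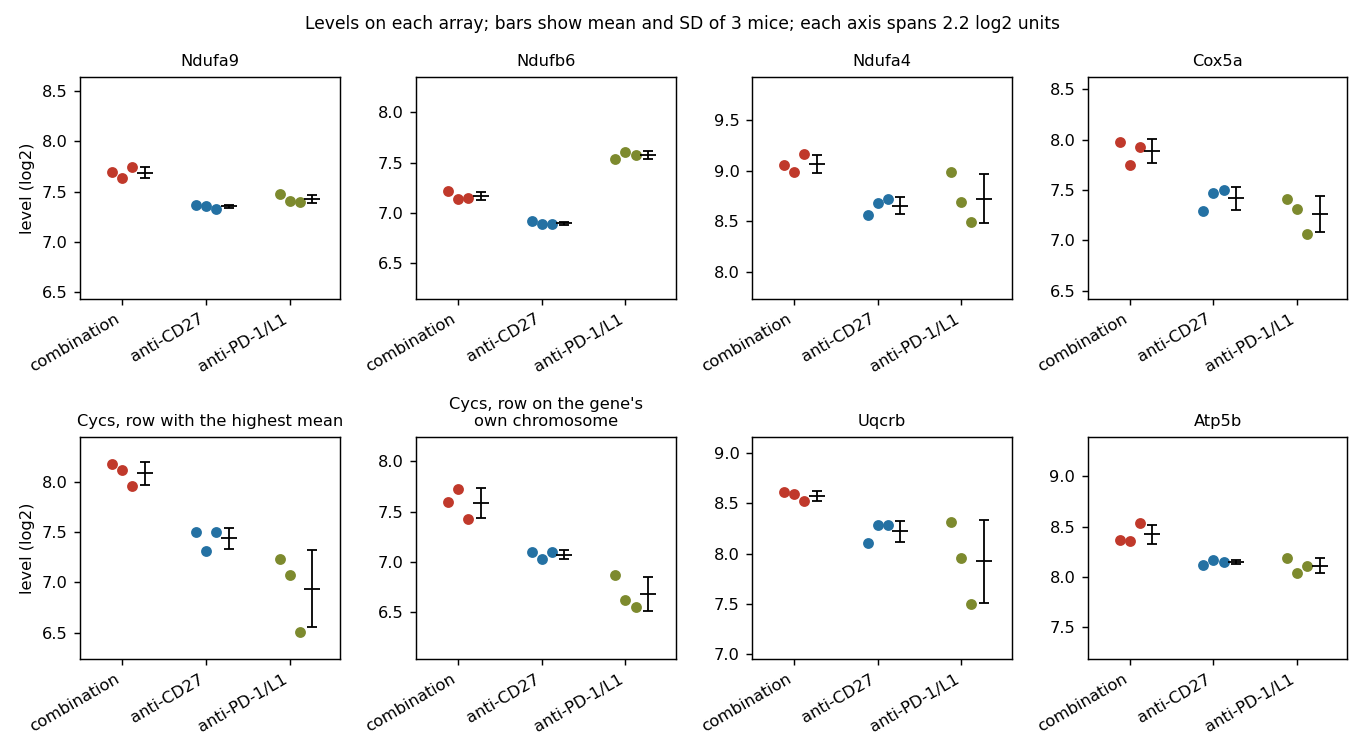
Log2 level (y axis) on each array, by group (x axis), for Ndufa9, Ndufb6, Ndufa4, Cox5a, both probe sets of Cycs, Uqcrb and Atp5b; points are mice and bars are the mean and SD of 3 mice, and each axis spans 2.2 log2 units around its own centre. In each panel the 3 combination arrays lie above the 3 anti-CD27 arrays, while the anti-PD-1/L1 arrays are the highest for Ndufb6 and the lowest for Cycs.

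Among 20 genes of complex IV, 13 had a difference above 0, and the median log2 difference of 0.05 was lower than in the other complexes. This complex holds 8 genes for isoforms that are largely restricted to muscle, testis, lung or other tissues, and without these the median of the other 12 was 0.14, with 10 above 0. Cox5a, a subunit on the matrix side, had log2 levels of 7.98, 7.75 and 7.93 with the combination, 7.29, 7.47 and 7.50 with anti-CD27 and 7.41, 7.31 and 7.06 with anti-PD-1/L1. Its 3 combination arrays lay above the other 6, and the log2 difference to anti-CD27 was 0.47 ± 0.10 (SE) with an adjusted p of 0.0714 by limma. Ndufa4 had log2 levels of 9.05, 8.99 and 9.17, then 8.56, 8.68 and 8.72, then 8.99, 8.69 and 8.50, in the same order. Here the highest anti-PD-1/L1 array reached the lowest combination array to 2 decimals, while the anti-CD27 arrays lay below, by 0.42 ± 0.12 (SE, adjusted p 0.162 by limma). Cox6a1, Cox5b and Cox7a2 differed by 0.20 ± 0.10, 0.20 ± 0.13 and 0.17 ± 0.07 on the log2 scale, and Cox8a and Cox4i1, the regulatory subunit at which ATP binds, by 0.11 ± 0.08 and 0.07 ± 0.07. Cox7a2l, which links complexes III and IV into supercomplexes, lay at -0.15 ± 0.11, with overlapping arrays.

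In complex V, 16 of 17 genes had a difference above 0, 11 did so without overlap, and the median log2 difference was 0.17, while 0 were called. Atp5b, the catalytic beta subunit, had log2 levels of 8.37, 8.36 and 8.54 with the combination, 8.12, 8.17 and 8.15 with anti-CD27 and 8.19, 8.04 and 8.11 with anti-PD-1/L1. The combination arrays were the highest 3 of the 9. The log2 difference to anti-CD27 was 0.27 ± 0.07 (SE, adjusted p 0.0908 by limma). Atp5a1, the alpha subunit, differed by 0.22 ± 0.11. The genes Atp5g1, Atp5g2 and Atp5g3 encode the same ring subunit with different targeting sequences, and differed by 0.11 ± 0.08, 0.05 ± 0.14 and 0.17 ± 0.09. For Atp5g2 the chosen probe set is placed on chromosome 7 and the gene on chromosome 15, and the probe set on chromosome 15 gave 0.07 ± 0.16. For Atp5l, subunit g, the chosen probe set is placed on chromosome 5 and gave 0.18 ± 0.08, while the brighter of those on the gene's own chromosome 9 gave -0.00 ± 0.05. Atp5l2 is a relative of Atp5l, and the signals of the pair may be shared.

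Of the 7 Ndufaf assembly factors, 6 had a difference above 0 and 5 lay above without overlap. Their median log2 difference was 0.21, against 0.12 for the 85 subunits and 0.15 for the 77 subunits outside the tissue-restricted isoforms. The difference between assembly factors and subunits was not tested, and 0 of the 7 were called. Ndufaf6 had log2 levels of 4.30, 4.60 and 4.51 with the combination and 4.06, 4.08 and 4.09 with anti-CD27, a difference of 0.39 ± 0.13 (SE, adjusted p 0.252 by limma). Ndufaf4, which helps to build the coenzyme Q module, had log2 levels of 4.77, 5.18 and 4.81, then 4.62, 4.37 and 4.62, a difference of 0.38 ± 0.18 (SE, adjusted p 0.61 by limma). Both genes lay higher on each combination array than on each anti-CD27 array. None of the 7 had a mean above the 95th centile of the background control probe sets, which 36 of the 95 genes exceeded. The other factors differed by 0.03 ± 0.06 (Sdhaf2, needed for the flavin of Sdha), 0.02 ± 0.08 (Dmac2) and -0.19 ± 0.08 (Sdhaf1, needed for the iron-sulfur centres of Sdhb), the last without overlap.

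Promoters of these genes were searched for motifs of factors known to act on respiratory genes, within 250 bases before and 50 bases after the start of the gene as given by RefSeq on GRCm38.p6. Of the 95 genes, 77 had a promoter in the table. The core of the nuclear respiratory factor 1 motif, GCATGCGC on either strand, was present in 12 of the 77 (15.6%), against 2.8% of 27025 promoters, and the longer palindromic form, the core with GC before it, in 7.8% against 0.98%. The YY1 motif AAGATGGCG was found in 9.1% against 1.49%, the CREB motif TGACGTCA in 5.2% against 1.88%, the ETS motif CCGGAAGT in 6.5% against 4.0%, the E-box CACGTG in 9.1% against 7.24% and the Sp1 motif GGGGCGGGG in 15.6% against 11.58%, both strands searched for each. The stretches that follow are shown because they hold the nuclear respiratory factor 1 core in the gene with the largest difference and in genes of complex I assembly, complex IV and complex II. They run 5′ to 3′ on the strand of the gene, with motifs in capitals; in Cycs the first run of capitals is the CREB motif and the next is the core, and in Ndufaf4 and Cox6a1 the capitals are the longer form. They lie at chr6:50566590-50566749 (minus strand, Cycs), chr4:24897943-24898022 (plus strand, Ndufaf4), chr5:115349069-115349148 (minus strand, Cox6a1) and chr4:140961161-140961250 (plus strand, Sdhb).
Cycs: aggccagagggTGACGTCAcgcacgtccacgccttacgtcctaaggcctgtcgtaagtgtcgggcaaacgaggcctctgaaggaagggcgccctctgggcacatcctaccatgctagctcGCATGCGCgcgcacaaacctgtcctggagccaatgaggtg
Ndufaf4: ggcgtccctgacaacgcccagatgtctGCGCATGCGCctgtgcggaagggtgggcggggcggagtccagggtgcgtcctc
Cox6a1: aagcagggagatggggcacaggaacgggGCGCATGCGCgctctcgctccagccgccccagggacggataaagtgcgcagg
Sdhb: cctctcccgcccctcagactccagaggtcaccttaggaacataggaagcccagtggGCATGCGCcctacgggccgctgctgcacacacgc

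The 12 genes with the core were Atp5g2, Atp5k, Atp5l, Cox6a1, Cycs, Ndufa6, Ndufa8, Ndufaf4, Ndufaf5, Sdhb, Uqcr11 and Uqcrc1. Their median log2 difference between combination and anti-CD27 was 0.17, with 11 of 12 above 0, 8 without overlap and 0 called. In the other 65 genes with a promoter the median was 0.11, with 55 above 0, 32 without overlap and 2 called. For Cycs, Atp5l and Atp5g2 the levels came from probe sets placed on other chromosomes than the promoters searched. Probe sets on the genes' own chromosomes gave 0.51 for Cycs, which was then called, -0.00 with overlapping arrays for Atp5l and 0.07 for Atp5g2. The letters are a description of the sequence, and binding of a factor was not measured. The genes for such factors showed 0 calls of 8 between combination and anti-CD27, with a median log2 difference of 0.06. Gabpa, an ETS factor, differed by 0.25 ± 0.14, Myc by 0.22 ± 0.09, Yy1 by 0.11 ± 0.11 and Nrf1 by 0.04 ± 0.05.

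Other mitochondrial genes were read from lists of pathway members. All 15 measured genes of pyruvate oxidation and the citric acid cycle, which feed the chain with electrons, had a difference above 0 between combination and anti-CD27. Of these, 12 did so without overlap, the median log2 difference was 0.22, and 0 were called. Among all genes, 47.6% had a difference above 0 and 12.1% lay higher without overlap. With the lowest 75% of genes left out, these shares were 58.2% and 29.9%. Counts above 0 in the lists that follow are to be set beside the same shares. Idh3a, a subunit of isocitrate dehydrogenase, had log2 levels of 7.12, 7.17 and 7.23 with the combination, 6.54, 6.46 and 6.54 with anti-CD27 and 6.28, 5.52 and 5.70 with anti-PD-1/L1, and its 0.66 ± 0.16 (SE, adjusted p 0.11 by limma) was the largest difference of the list. Among 79 genes of the mitochondrial ribosome, which makes the subunits encoded by mitochondrial DNA, 68 had a difference above 0, with a median of 0.08, and 1 rose, Mrps18b, by 0.30 ± 0.05 (adjusted p 0.0184 by limma). For this list and those that follow, single calls are to be set beside the 1.26% of all genes called higher. Lrpprc, which stabilises mitochondrial messenger RNA, was the 1 of 17 complex IV assembly genes that rose (0.33 ± 0.06, adjusted p 0.0225 by limma), and the list's median was 0.07. Tfb1m, a methyltransferase of mitochondrial ribosomal RNA, was the 1 of 10 genes of mitochondrial DNA expression that rose (0.44 ± 0.07, adjusted p 0.0208 by limma), with a median of 0.07. Of 22 import genes Timm8a1 rose (0.39 ± 0.07, adjusted p 0.0338 by limma), with a median of 0.07. None was called among 8 further complex I assembly genes (median 0.05), 6 complex III assembly genes (0.01), 4 genes of complex V assembly and inhibition (0.10) or 9 of coenzyme Q synthesis (0.06).

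Markers of other cell types moved with this comparison in 2 genes. Itgam, a myeloid marker, had log2 levels of 4.32, 4.38 and 4.37 with the combination against 3.81, 3.71 and 3.73 with anti-CD27, and Klri2, an NK-cell marker, of 2.57, 2.54 and 2.23 against 1.83, 1.92 and 1.75. Of 8 myeloid markers 1 had a difference above 0, and of 3 NK-cell markers 2 did, and activated T cells can express either gene. The 7 CD8 T-cell markers had a median log2 difference of -0.11, with 1 above 0 and 0 called. The part of such cells in the differences of respiratory chain genes was not tested.

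The comparison of combination with anti-PD-1/L1, which asks what CD27 stimulation added to blockade, gave mixed directions. Of the 95 genes, 22 were higher in the combination group and 39 lower in limma's test, 64.2% in all, against 72.3% of all genes, of which 19% were higher and 53.3% lower. The share of respiratory chain genes called was thus no larger than the background. With the lowest 75% of genes left out, 28.4% of the 74 remaining respiratory chain genes were called higher and 33.8% lower, against 54% and 24.6% of all remaining genes. The median log2 difference was -0.10, and that of all genes was -0.26, a shift that goes with the array differences given above and cannot be told apart from treatment. Relative to the median of all genes the 95 genes lay at 0.16, but at -0.25 after quantile normalization, at -0.17 with arrays scaled to a common SD and at -0.41 with positive controls as a term. The direction of the family as a whole therefore depended on the scaling. The positive control levels of the anti-PD-1/L1 arrays do not overlap with those of the other arrays, so the fit with that term nearly repeats the grouping, and it called 6.26% of all genes. With quantile normalization 12 genes were higher and 59 lower, against 23.3% and 29.7% of all genes, and with arrays scaled to a common SD 34 were higher and 29 lower, against 47.9% and 18.7%.

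Anti-CD27 against anti-PD-1/L1 shares the anti-PD-1/L1 arrays with that comparison, and its values stand beside it. Here 12 of 95 genes were higher with anti-CD27 and 45 lower, 60% in all, against 70.7% of all genes, of which 17.1% were higher and 53.6% lower. The median log2 difference was -0.19 against -0.26 over all genes. Of the 7 CD8 T-cell markers, 5 were called higher and 1 lower for combination and for anti-CD27, against 19% and 17.1% of all genes called higher. Their median log2 differences were 0.98 and 1.03. Called lower for combination were 4 of 6 B-cell, 5 of 8 myeloid, 5 of 5 dendritic, 2 of 2 erythroid and 4 of 4 platelet markers. So were 1 of 2 CD4 and 1 of 3 NK markers, against 53.3% of all genes. In the same order, 4, 6, 3, 2, 4, 0 and 2 were called lower for anti-CD27, against 53.6%. For combination, 1 B-cell, 1 myeloid and 1 NK marker were called higher. The part of these markers in the values of respiratory chain genes was not tested. With quantile normalization 6 of the 95 genes were higher and 62 lower, against 21.2% and 30.6% of all genes. With arrays scaled to a common SD 24 were higher and 35 lower, against 45% and 18.6%. With the lowest 75% of genes left out, 14.9% of the respiratory chain genes were called higher and 41.9% lower, against 49.3% and 25.8% of all remaining genes.

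**Figure D3:**
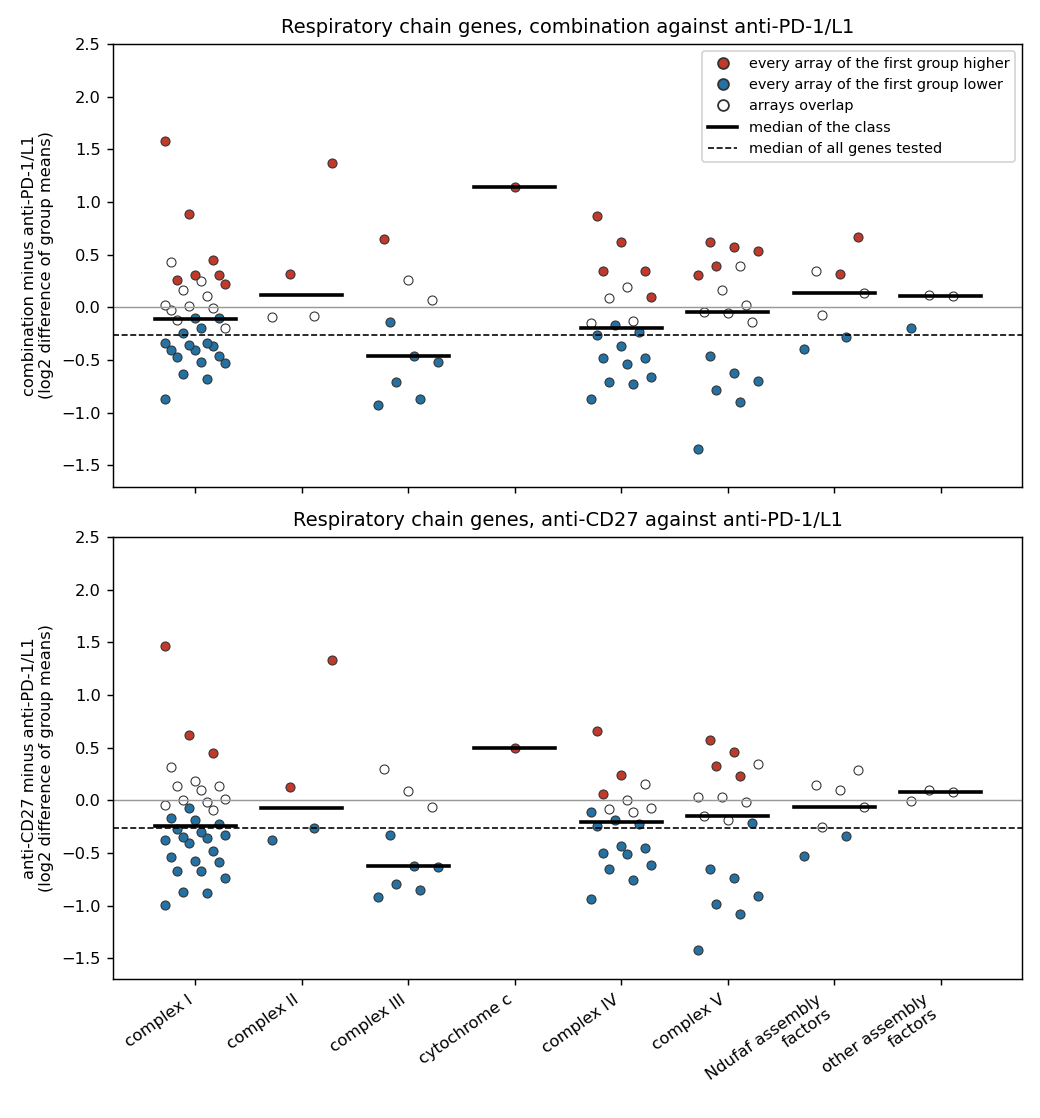
Difference between mean log2 levels (y axis) of combination and anti-PD-1/L1 arrays (upper panel) and of anti-CD27 and anti-PD-1/L1 arrays (lower panel) for each gene, by complex (x axis); both panels use the same 3 anti-PD-1/L1 arrays. Points are coloured as red where no arrays overlapped and the first group was higher, blue where it was lower and open where arrays overlapped; genes lie between -1.42 and 1.58, and the dashed line is the median of all genes, -0.26 in both, which was 0.20 and 0.18 with arrays scaled to a common SD.

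Complexes differed in their medians. Complex III had the lowest, -0.47 for combination and -0.63 for anti-CD27, with 5 and 6 of 9 genes called lower, a count near the 53.3% and 53.6% of all genes, and both medians stayed below 0 and below that of all genes after quantile normalization, with scaling to a common SD and with positive controls as a term. Complex I (-0.11 and -0.25) and complex IV (-0.20 and -0.21) stayed below 0 under the same settings, but the 12 genes of complex IV outside the tissue-restricted isoforms had medians of 0.09 and -0.08, with 4 higher and 4 lower for combination and 2 higher and 2 lower for anti-CD27. Relative to the median of all genes, complex I lay at 0.15 and 0.01 and complex IV at 0.06 and 0.05 on the deposited values. Both lay below that median under each of the other settings, so their direction relative to all genes depended on the scaling. Complex V (-0.04 and -0.15), complex II (0.12 and -0.07) and the Ndufaf factors (0.14 and -0.07) each changed sign under at least 1 of these settings. The Ndufaf factors had 2 genes called higher and 2 lower for combination, and 0 higher and 2 lower for anti-CD27, while Ndufaf5 was called lower in both (-0.39 ± 0.07 and -0.53 ± 0.07) and Ndufaf4 was called higher for combination (0.67 ± 0.18).

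Ndufa10, an accessory subunit of the membrane arm of complex I, had the largest positive difference in both. Its log2 levels were 7.83, 7.85 and 7.83 with the combination, 7.68, 7.75 and 7.73 with anti-CD27 and 6.53, 6.27 and 5.97 with anti-PD-1/L1. The anti-PD-1/L1 arrays lay more than 1 log2 unit below the rest, and below the 95th centile of their own background controls, 8.12 to 8.46, so the size of this difference is uncertain. The anti-PD-1/L1 levels of Sdha, Ndufs1, Cycs and Atp5d also lay below those controls, so the sizes of their differences are uncertain. Log2 differences to anti-PD-1/L1 were 1.58 ± 0.12 for combination (adjusted p 8.95e-06 by limma) and 1.46 ± 0.12 for anti-CD27 (adjusted p 1.55e-05), and stayed called after quantile normalization and scaling, but were 0.16 and 0.19 and not called with positive controls as a term.

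Sdha had log2 levels of 7.11, 7.06 and 7.24, then 7.08, 7.13 and 7.07, then 6.17, 5.67 and 5.45, in the same order of groups. Combination and anti-CD27 arrays overlapped, and the anti-PD-1/L1 arrays lay lower. The log2 differences were 1.37 ± 0.16 and 1.33 ± 0.16, called in both, and -0.50 and -0.36 with positive controls as a term. The other subunits of complex II did not follow in size, with Sdhb at 0.32 ± 0.07 and 0.12 ± 0.07, Sdhc at -0.08 ± 0.11 and -0.26 ± 0.11 and Sdhd at -0.09 ± 0.12 and -0.38 ± 0.12. Of these, Sdhb was called for combination and Sdhd for anti-CD27, and Sdhb was below 0 for both after quantile normalization, at -0.12 and -0.27.

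Cycs was 1.15 ± 0.17 above anti-PD-1/L1 with the combination and 0.50 ± 0.17 above with anti-CD27 on the log2 scale, both called, but 0.11 and not called for anti-CD27 after quantile normalization, and -0.78 and -1.24 with positive controls as a term. Its probe set on chromosome 6 gave 0.90 ± 0.10 and 0.39 ± 0.10, also called in both. Ndufs1 (0.89 ± 0.09 and 0.62 ± 0.09) and Cox6a1 (0.86 ± 0.10 and 0.66 ± 0.10) were the next called in both, each with non-overlapping arrays, and both were below 0 with positive controls as a term. For Cox6a1 the log2 levels were 10.11, 10.15 and 10.14, then 9.88, 9.97 and 9.94, then 9.53, 9.22 and 9.06. The order from combination to anti-CD27 to anti-PD-1/L1 held without overlap. Atp5d, the delta subunit of the ATP synthase, was called at 0.57 ± 0.08 for anti-CD27, but its probe sets disagreed, since a dimmer one gave -0.56.

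Among the largest negative differences were small subunits of complex V. Atp5e, the epsilon subunit, had log2 levels of 6.57, 6.55 and 6.55 with the combination, 6.48, 6.66 and 6.28 with anti-CD27 and 7.76, 7.97 and 7.96 with anti-PD-1/L1. The anti-PD-1/L1 arrays lay more than 1 log2 unit above the rest, but all 9 levels lay below the 95th centile of the background controls of their arrays, so the size of this difference is uncertain, as it is for Ndufb8 and Uqcr11. The Atp5e levels lay above the 95th centile of the negative control probe sets, 5.53 to 6.07. The log2 differences to anti-PD-1/L1 were -1.34 ± 0.10 and -1.42 ± 0.10 (adjusted p 7.37e-06 and 5.7e-06 by limma), and stayed below 0 under each scaling. With positive controls as a term they were -0.68 and -0.82 and not called. Atp5l lay at -0.90 and -1.08 on its brightest probe set. On its own chromosome it lay at -0.57 and -0.57 on the brighter probe set and at -0.72 and -0.73 on the dimmer. Atp5l2 lay at -0.98 for anti-CD27.

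Uqcrh (-0.92 ± 0.07) and Uqcr11 (-0.87 ± 0.08) of complex III and Ndufb8 (-0.87 ± 0.09) of complex I followed for combination, and Ndufb8 (-0.99 ± 0.09) and Cox4i1 (-0.94 ± 0.07) for anti-CD27. Each was called in its comparison and its arrays did not overlap. They stayed below 0 after quantile normalization and scaling. With positive controls as a term none of them was called, and Ndufb8 was at 0.06 for combination. Cox4i1 had log2 levels of 6.92, 6.88 and 6.92, then 6.82, 6.89 and 6.81, then 7.70, 7.92 and 7.71. Within complex IV, Cox4i1 and Cox6a1 thus had differences of opposite sign on the same arrays, and within complex V so did Atp5e and Atp5g1 (0.57 ± 0.08 and 0.45 ± 0.08).

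The tissue-restricted isoforms show how dim genes behaved on these arrays. They comprised Cox4i2 of lung, Cox6a2, Cox7a1 and Cox8b of heart and skeletal muscle, Cox6b2, Cox7b2, Cox8c and Cyct of testis, and Ndufa4l2, of which Cyct (testis cytochrome c) was outside the 95 genes. All 9 had higher means with anti-PD-1/L1 than in either of the other groups on the deposited values, 7 of 9 were called in each comparison, near the 72.3% and 70.7% of all genes, and the median log2 differences were -0.48 and -0.50. With arrays scaled to a common SD 3 of 9 were above 0 in each comparison. Between combination and anti-CD27, 0 of 9 were called, 3 had a difference above 0 and the median was -0.03. Ndufa4l2 had log2 levels of 3.09, 3.23 and 3.02 with the combination, 3.12, 3.13 and 3.02 with anti-CD27 and 3.64, 3.89 and 3.99 with anti-PD-1/L1. The mean level of the background control probe sets was 3.20 to 3.32 on the first 6 of these arrays and 4.01 to 4.16 on the last 3, and so moved the same way. The part of the background in these values was not tested.

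**Figure D4:**
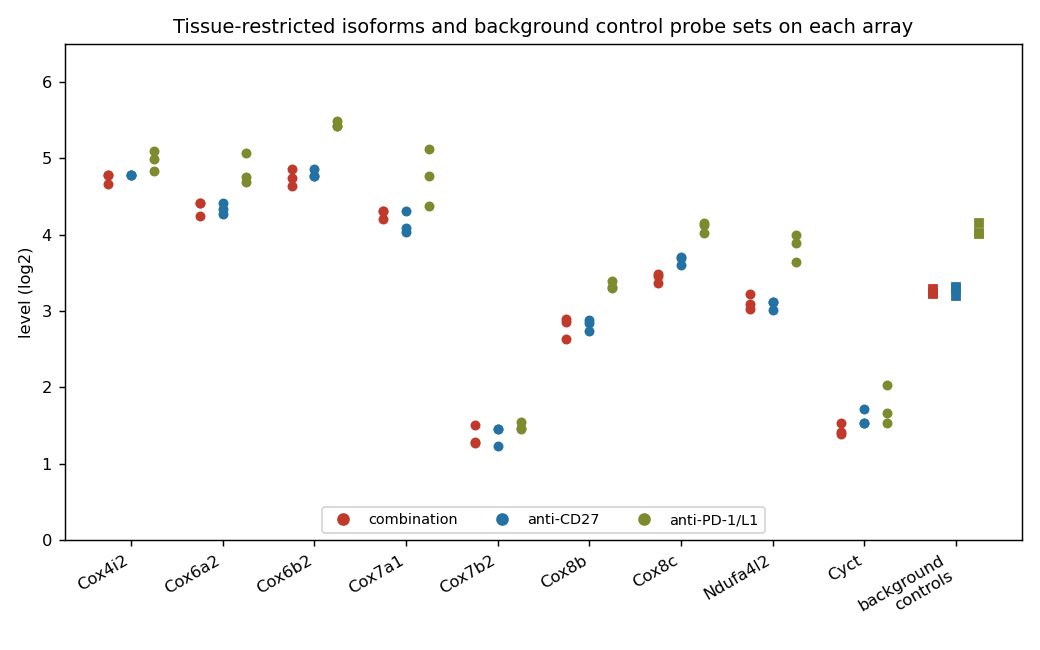
Log2 level (y axis) of the 9 tissue-restricted isoform genes and mean log2 level of the background control probe sets (x axis) on each of the 9 arrays, coloured by group. The anti-PD-1/L1 arrays lie above the others for most genes and for the background controls, at 4.01 to 4.16 against 3.20 to 3.32, an order that turned for some genes with arrays scaled to a common SD.

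Genes of the citric acid cycle were read on the same arrays. Of 15, 14 were called higher than with anti-PD-1/L1 for combination and 10 for anti-CD27, 0 were called lower, and the median log2 differences were 0.72 and 0.62. Of all genes with the lowest 75% left out, 54% and 49.3% were called higher, and the difference between these genes and the respiratory chain was not tested. The medians were 0.36 and 0.25 after quantile normalization and 0.73 and 0.66 with scaling, but -0.57 and -0.77 with positive controls as a term. Ogdh, a subunit of oxoglutarate dehydrogenase, had log2 levels of 8.17, 8.20 and 8.26 with the combination, 8.03 on each anti-CD27 array and 6.13, 6.01 and 5.76 with anti-PD-1/L1. Its differences of 2.24 ± 0.09 and 2.06 ± 0.09 were called, and stayed above 0 and called under each scaling and with positive controls as a term. Its anti-PD-1/L1 levels lay below the 95th centile of the background controls of those arrays, 8.12 to 8.46, so the sizes of these differences are uncertain. Among the regulators, Yy1, Gabpa, Myc, Nrf1 and Gabpb1 were called higher in both comparisons and Ppargc1a, at log2 levels under 3, lower, with list medians of 0.46 and 0.43, which were 0.02 and 0.01 with positive controls as a term.

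**Figure D5:**
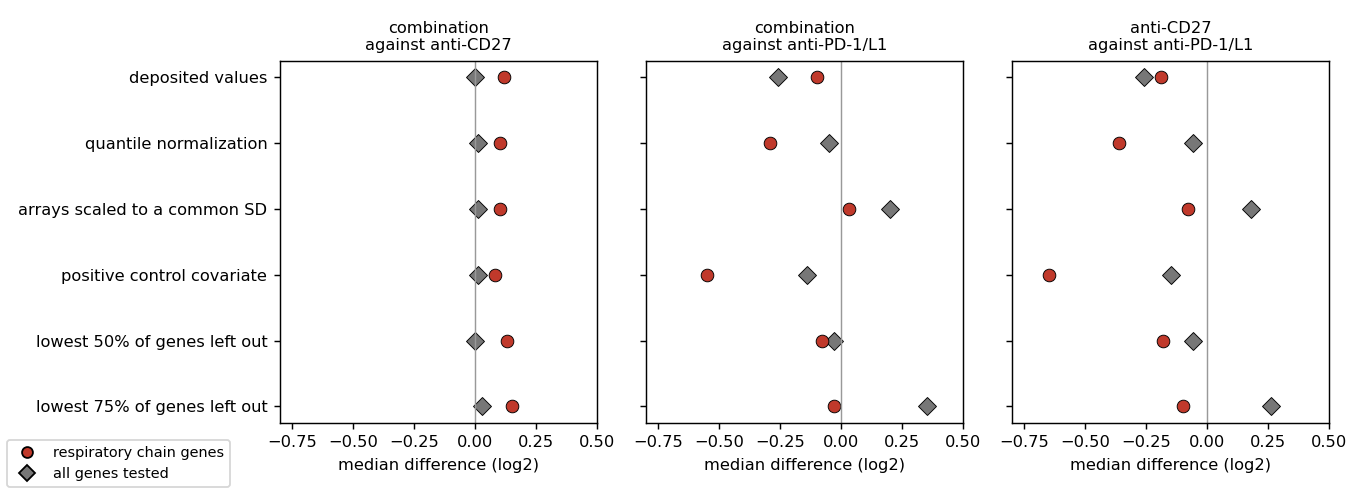
Median log2 difference (x axis) of the 95 respiratory chain genes (circles) and of all genes tested (diamonds) under 6 settings of scaling or filtering (y axis), in a panel for each comparison. For combination against anti-CD27 the respiratory chain genes lie at 0.08 to 0.15 and all genes at -0.00 to 0.03; against anti-PD-1/L1 both sets shift with the setting, and their order turns.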

How the data were processed

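Each of the 9 samples was 1 Affymetrix whole-transcript array of sorted cells. The authors deposited log2 levels per probe set. The submitters' processing notes name RMA, a method that subtracts background, equalises quantiles among arrays and summarises probes, and oligo 1.38.0. Whether all 9 arrays were normalized together, and the genome build, are not given in the sources used here. Of 72688 probe sets, 31215 transcript probe sets named 1 gene in GEO's platform annotation, 1535 named several and were left out, and 33206 named none. Symbols were updated for 820 genes, and the probe set with the highest mean over the 9 arrays stood for each of 30742 genes. Of 22602 genes with 1 probe set and a chromosome in both tables, the 2 chromosomes matched for 99.91%.

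Values were tested in R 4.3.3 with limma 3.58.1 (lmFit, contrasts.fit and eBayes, two-sided) on all 9 arrays, with 1 mean per group and 6 residual degrees of freedom. Benjamini-Hochberg adjustment ran across the 30742 genes, and an adjusted p under 0.05 was a call. The fit was tested on simulated data. Lists were described by counts and medians, with no test. Named genes were all called genes of combination against anti-CD27, the extremes of each complex above background, the 5 largest called differences in each direction of the other comparisons, and genes fixed by name. The genes and lists were chosen with earlier results of these data known. Alternatives were quantile normalization, scaling arrays to a common SD, positive control levels as a term, array weights, the mean over a gene's probe sets, filters on dim genes, the 6 arrays compared, the replicate number as a block, and leaving out each array. Use of the probe set on a gene's own chromosome, and the counts of genes above 0 or without overlap, were added after the data had been seen. Each sample came from a separate mouse, and 3 arrays per group limit the precision.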

Additional observations from a re-analysis of the deposited data

How the results depend on the processing

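For combination against anti-CD27, the 2 genes called higher became 16 with array weights and 13 with the 6 arrays compared. They became 1 with scaling to a common SD, Ndufa9, and 0 to 6 when each array was left out. With quantile normalization neither Ndufa9 nor Ndufb6 was called, and the 1 gene called was Ndufa4. The 0 called lower became 1 with array weights. Over all genes, 387 higher became 1816 with array weights, 1225 with the 6 arrays and 136 to 940 with an array left out, and 160 lower became 697, 426 and 38 to 283, and 272 with positive controls as a term. That term moved medians from 0.12 to 0.08 for the 95 genes, 0.12 to 0.06 for complex I, 0.19 to 0.12 for complex II, 0.17 to 0.11 for complex V, 0.07 to -0.01 for complex IV assembly, 0.10 to 0.02 for complex V assembly, 0.22 to 0.09 for the citric acid cycle, 0.07 to 0.01 for mitochondrial DNA expression and 0.06 to 0.02 for regulators. Complex I was 0.09 with scaling and 0.09 with quantile normalization. With an array left out, the 95 genes ranged from 0.10 to 0.16 and complex I from 0.09 to 0.16.

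For combination against anti-PD-1/L1, genes called higher (22) became 34 with scaling, 12 with quantile normalization and 0 with positive controls, and lower (39) became 59 with quantile normalization, 25 without the lowest 75% and 6 with positive controls. Over all genes, 5839 higher became 14736 with scaling and 898 with positive controls, and 16378 lower became 5764, 1025, 9139 with quantile normalization, and 6267 and 1890 without the lowest 50% and 75%. Under scaling, quantile normalization and positive controls in turn, medians were 0.03, -0.29 and -0.55 for the 95 genes, -0.05, -0.39 and -0.54 for complex I, -0.30, -0.68 and -0.72 for complex III, -0.06, -0.31 and -0.37 for complex IV; complex II was -0.30 and -0.34 and complex V -0.38 and -0.64 under the last 2, and the Ndufaf factors 0.46 with scaling and -0.66 with positive controls. Complex III ranged from -0.53 to -0.40 with an array left out.

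When anti-CD27 was compared with anti-PD-1/L1, genes called higher (12) became 24 with scaling, 6 with quantile normalization, 0 with positive controls and 7 to 20 with an array left out, and lower (45) became 10 with positive controls. Over all genes, 5265 higher became 13820 with scaling and 1088 with positive controls, and 16480 lower became 5708, 1337, 9405 with quantile normalization, and 6357 and 1981 without the lowest 50% and 75%. In the same order of settings, medians were -0.08, -0.36 and -0.65 for the 95 genes, -0.14, -0.48 and -0.67 for complex I, 0.04, -0.45 and -0.40 for complex II, -0.40, -0.79 and -0.79 for complex III, -0.08, -0.33 and -0.48 for complex IV and 0.01, -0.37 and -0.69 for complex V; the Ndufaf factors were 0.07 with scaling and -0.78 with positive controls. Complex I ranged from -0.28 to -0.19 and complex IV from -0.24 to -0.11 with an array left out.

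Single genes that changed sign between combination and anti-CD27 were Ndufa4l2 (-0.01 without anti-CD27 replicate 3, -0.03 without combination replicate 2), Sdha (-0.14 with positive controls, -0.01 without combination replicate 3), Cox4i2 (0.04 with positive controls), Cox6a2 (-0.01 without anti-CD27 replicate 1, combination replicate 2 or combination replicate 3), Cox8b (0.05 without combination replicate 1) and Atp5g2 (-0.02 with scaling, -0.08 with positive controls, -0.00 without combination replicate 3). With positive controls, against anti-PD-1/L1, combination gave Sdha -0.50, Cycs -0.78, Ndufs1 -0.03, Cox6a1 -0.38 and Ndufb8 0.06, and anti-CD27 gave Sdha -0.36, Cox6a1 -0.46, Ndufs1 -0.20 and Atp5d -0.06. The causes of these changes were not tested.

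The replicate numbers did not pair the arrays, since correlations of deviations between same-numbered arrays ran from -0.196 to 0.16. With the replicate block, 0 of the 95 genes were called for combination against anti-CD27, against 1.22% of all genes. For combination against anti-PD-1/L1, 21 were higher (22.1%) and 38 lower (40%), against 18.6% and 52% of all genes. For the comparison of anti-CD27 with anti-PD-1/L1, 9 were higher (9.47%) and 44 lower (46.3%), against 16.7% and 52%. Of the other results, 694 main counts and medians moved little, a label that does not check direction or call. Another 998 single-gene values kept their direction and their call, while 26 gained a call and 28 lost one.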

Other observations

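Some deposited values were identical to 6 decimals between arrays of a gene. A value shared by 3 or more of the 9 arrays was found for 30 of the 95 respiratory chain genes (31.6%) and for 38.2% of all genes, and a value shared by 7 or more for 2 of the 95 (2.11%) and for 1.48% of all genes. Ndufs1 and Sdhb, for example, each had the same log2 level, to 2 decimals, on all 3 anti-CD27 arrays (5.97 and 7.13), so that the spread seen for such genes in that group was near 0.

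Among 12 genes with the nuclear respiratory factor 1 core in the promoter, the median log2 difference against anti-PD-1/L1 was 0.28 for combination and 0.11 for anti-CD27, with 7 above 0 in each. In the other 65 genes with a promoter it was -0.09 and -0.15. These comparisons share the anti-PD-1/L1 arrays, and the difference between the gene sets was not tested. For Cycs, Atp5l and Atp5g2 the levels again came from probe sets placed on other chromosomes than the promoters.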
